A study of Caenorhabditis elegans with 2 samples.

Results

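Heat shock proteins and molecular chaperones were examined in a chromatin immunoprecipitation sequencing (ChIP-seq) experiment on NHR-28, which belongs to the nuclear hormone receptors of the worm Caenorhabditis elegans. The set held 65 of the 19985 protein-coding genes of the WBcel235 annotation. It was chosen by name: every protein-coding gene whose symbol is hsp, dnj or cct followed by a number, together with sti-1, enpl-1, sip-1, hsf-1, F44E5.4 and F44E5.5. By class it held 8 HSP70 genes, 3 HSP90 genes, 14 small heat shock protein genes, 9 chaperonin genes and 29 J-domain genes, and sti-1 and hsf-1 were left unclassed. The symbols hsp-16.1 and hsp-16.48 each stand on 2 gene models, and all 4 models were counted.

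The animals were L1 larvae, the first larval stage, of strain OP317, collected whole and of mixed sex. The strain carries the unc-119(ed3) mutation on chromosome III and the transgene insertion wgIs317, from which NHR-28 with an enhanced green fluorescent protein (eGFP) tag was made. There was 1 group of 2 biological replicates, each set against a control alignment, and no second condition, heat treatment or untagged strain was analysed here. Neither the transgene's promoter nor the cells that express it are stated in the labels, so the values describe the tagged receptor of this strain in whole larvae.

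Chaperones bind unfolded or aggregation-prone proteins and help them fold, refold or be degraded. HSP70 proteins work in cycles of ATP hydrolysis that J-domain proteins start and exchange factors such as HSP110 reset, HSP90 acts later on near-native client proteins, chaperonins enclose proteins in a ring, and small heat shock proteins hold unfolded chains without ATP. Many of these genes are controlled by heat shock factor, the product of hsf-1 in the worm, which binds alternating GAA and TTC units called heat shock elements. Nuclear hormone receptors are another family of factors, with zinc fingers for DNA binding, and several of them recognise sites that contain AGGTCA.

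The sequences under the highest regions are shown first, because the elements they hold differ between genes that otherwise rank alike. Each is the 200 bases centred on the summit, the position of highest enrichment, of the best-ranked region of a gene, on the strand of that gene and read from the RefSeq genome of WBcel235, the same assembly as ce11. Capitals mark every GAANNTTC or TTCNNGAA, the 2 ways of pairing adjacent heat shock element units, where N is any base. Each of these motifs is its own reverse complement, so both strands are covered, and overlapping matches run together. For comparison, the 200 bases before the start of hsp-16.2, a strongly heat-inducible small heat shock protein gene, are given last, since this gene had no region in the pooled list.
hsp-90 (chrV:14685698-14685897, plus strand): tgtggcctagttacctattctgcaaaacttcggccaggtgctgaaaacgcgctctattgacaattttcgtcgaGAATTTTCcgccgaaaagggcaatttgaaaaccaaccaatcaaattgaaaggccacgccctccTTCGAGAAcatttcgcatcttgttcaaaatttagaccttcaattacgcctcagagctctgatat
hsp-1 (chrIV:17278467-17278666, plus strand): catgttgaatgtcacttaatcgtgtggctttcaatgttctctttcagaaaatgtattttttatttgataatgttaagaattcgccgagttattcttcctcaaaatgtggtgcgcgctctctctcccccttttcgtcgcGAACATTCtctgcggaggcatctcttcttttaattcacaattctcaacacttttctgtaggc
F44E5.5 and F44E5.4 (chrII:11759365-11759564, plus strand): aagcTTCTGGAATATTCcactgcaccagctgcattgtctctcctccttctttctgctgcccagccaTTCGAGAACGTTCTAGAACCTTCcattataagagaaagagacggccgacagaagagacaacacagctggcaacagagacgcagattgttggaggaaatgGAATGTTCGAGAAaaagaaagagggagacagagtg
dnj-9 (chrII:4851725-4851924, plus strand): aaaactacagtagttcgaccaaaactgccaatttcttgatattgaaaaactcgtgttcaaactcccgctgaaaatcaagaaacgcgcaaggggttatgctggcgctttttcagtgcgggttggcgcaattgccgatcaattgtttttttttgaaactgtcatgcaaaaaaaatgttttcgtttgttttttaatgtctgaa
hsp-60 (chrIII:1619041-1619240, plus strand): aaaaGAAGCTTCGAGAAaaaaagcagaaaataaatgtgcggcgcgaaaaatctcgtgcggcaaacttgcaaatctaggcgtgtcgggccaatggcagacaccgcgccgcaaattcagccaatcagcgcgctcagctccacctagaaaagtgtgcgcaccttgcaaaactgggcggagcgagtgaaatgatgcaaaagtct
hsp-16.2 (chrV:1804958-1805157, minus strand): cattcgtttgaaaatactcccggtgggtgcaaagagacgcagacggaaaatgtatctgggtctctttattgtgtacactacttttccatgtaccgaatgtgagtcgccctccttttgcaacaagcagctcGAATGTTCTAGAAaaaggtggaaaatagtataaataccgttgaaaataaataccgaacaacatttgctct

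The window shared by F44E5.4 and F44E5.5 held 8 pair matches in 3 runs, the hsp-90 window held 2 separate ones and the hsp-1 window held 1. The dnj-9 window held none, although dnj-9 ranked directly between hsp-1 and F44E5.5 among these 4 loci. The printed bases before hsp-16.2 held 2 overlapping matches, the same number as in the hsp-60 window. This equality holds for the printed bases only. The hsp-16.2 promoter, counted further below from 250 bases before to 50 bases after the start, held 4 pair matches.

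Regions were taken from 3 deposited lists of candidate regions, peaks together with background, 1 for each replicate and 1 made from both replicates, here called the pooled list. Each list held 30000 regions, ranked by the authors' signal value with the highest at rank 1. Signal ran from 12.5 to 1362 in the pooled list, from 8.37 to 918 in replicate 1 and from 6.39 to 800 in replicate 2. It orders regions within 1 list only, so a higher rank in 1 list than in another is not a change in occupancy. A further list held the 159 peaks, 25 of them mitochondrial, that passed the authors' threshold on repeatability between the replicates. A region was assigned to a gene when its summit lay in the gene or within 1 kb of its start, so that 1 region could serve several genes. No read counts were used, so sequencing depth is unknown.

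Chaperone genes held high-ranking regions more often than protein-coding genes did in general, although most of the 65 did not hold one. In the pooled list, 16 of the 65 chaperone genes had a region among the 1000 highest, which is 24.6% (exact 95% interval 14.8 to 36.9), against 4.20% of all protein-coding genes. In replicate 1 the count was 16, again 24.6%, against 4.26% of all genes, and in replicate 2 it was 13, or 20.0% (interval 11.1 to 31.8), against 4.01%. The pooled list was made from the same 2 replicates, so it is not an independent measurement. The intervals cover counting error over genes only, and neighbouring or duplicated genes are not independent.

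The more demanding criteria gave smaller counts with the same order. In both replicates at once, 10 chaperone genes had a region among the 1000 highest, or 15.4% (interval 7.63 to 26.5), against 1.09% of all genes. At a thresholded peak lay 9 chaperone genes, or 13.8% (interval 6.53 to 24.7), against 0.665% of all genes. Any candidate region at all, a criterion that most genes met, was found in the pooled list for 47 of 65 chaperone genes, or 72.3% (interval 59.8 to 82.7), against 56.3% of all genes. The corresponding counts were 49 of 65 against 59.9% of all genes in replicate 1, and 52 of 65 against 60.2% in replicate 2. No region in any of the 3 lists was found for 4 chaperone genes, or 6.15%, against 22.5% of all genes.

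Among the genes with a region, the median best rank was 4155 for the 47 chaperone genes and 9710 for the 11246 protein-coding genes of the pooled list. In replicate 1 the medians were 6327 and 10098.5, and in replicate 2 they were 5112 and 10125.5. The median gene lengths were 2205 bp for the chaperone genes and 2026 bp for all protein-coding genes, and the part of length in these ranks was not tested.

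**Figure D1:**
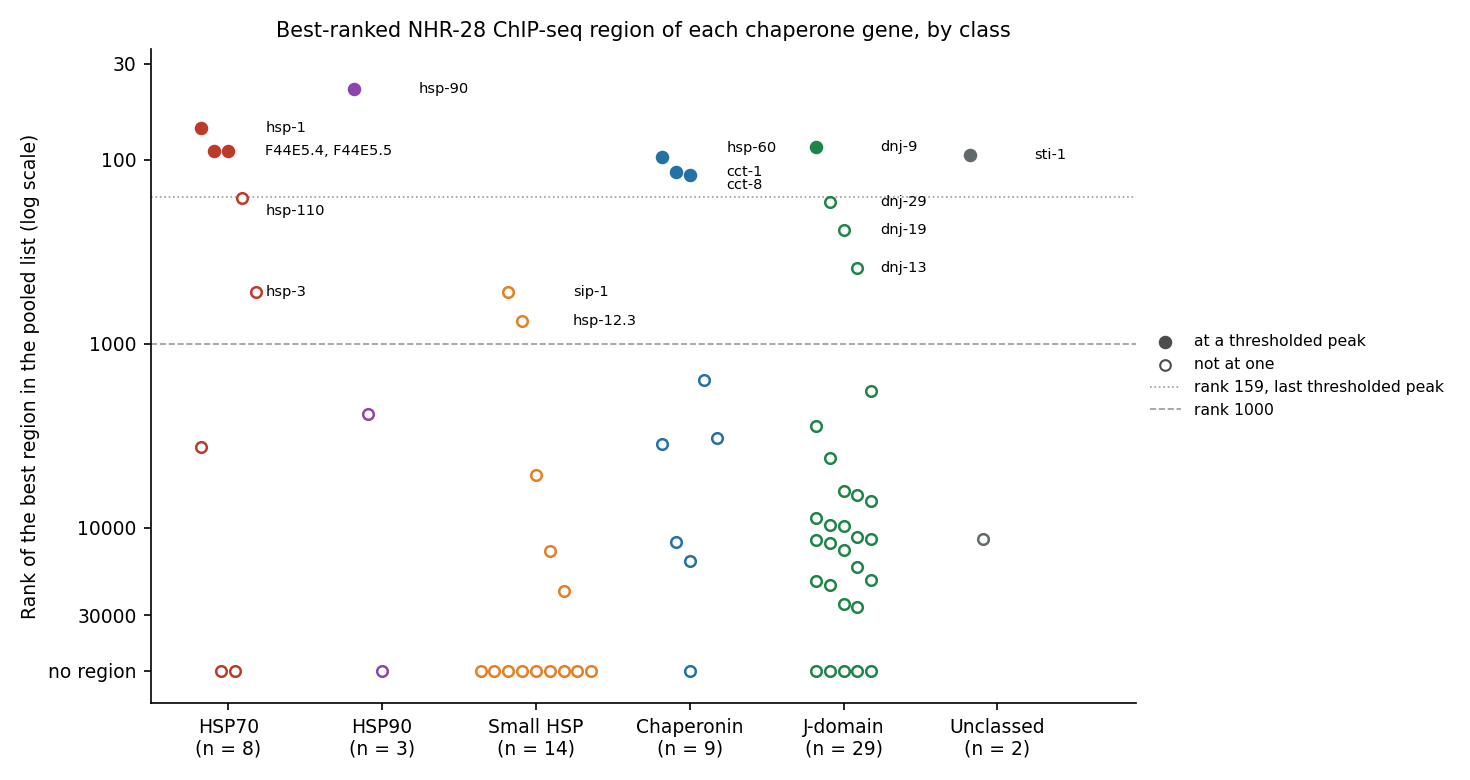
Rank of the best region of each chaperone gene in the pooled list (vertical, log scale, highest signal at the top), by class, with genes that have no region at the bottom. Filled points lie at a thresholded peak, and the lines mark ranks 159 and 1000. The HSP70 genes and the chaperonins reach the top with several members, while most small heat shock protein and J-domain genes lie below rank 1000 or have no region.

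The classes differed in how many of their members ranked high, as the plot of best ranks by class shows. In the pooled list, 5 of 8 HSP70 genes, 1 of 3 HSP90 genes, 3 of 9 chaperonin genes, 4 of 29 J-domain genes and 2 of 14 small heat shock protein genes had a region among the 1000 highest. The share of all protein-coding genes there was 4.20%. The median best rank of members with a region was 125.5 for HSP70, 1226 for HSP90, 2401.5 for chaperonins, 5143 for small heat shock proteins and 9726.5 for J-domain genes. The J-domain median lay close to the 9710 of all protein-coding genes. With 3 to 29 genes in a class these counts describe the classes and were not tested against each other.

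**Figure D2:**
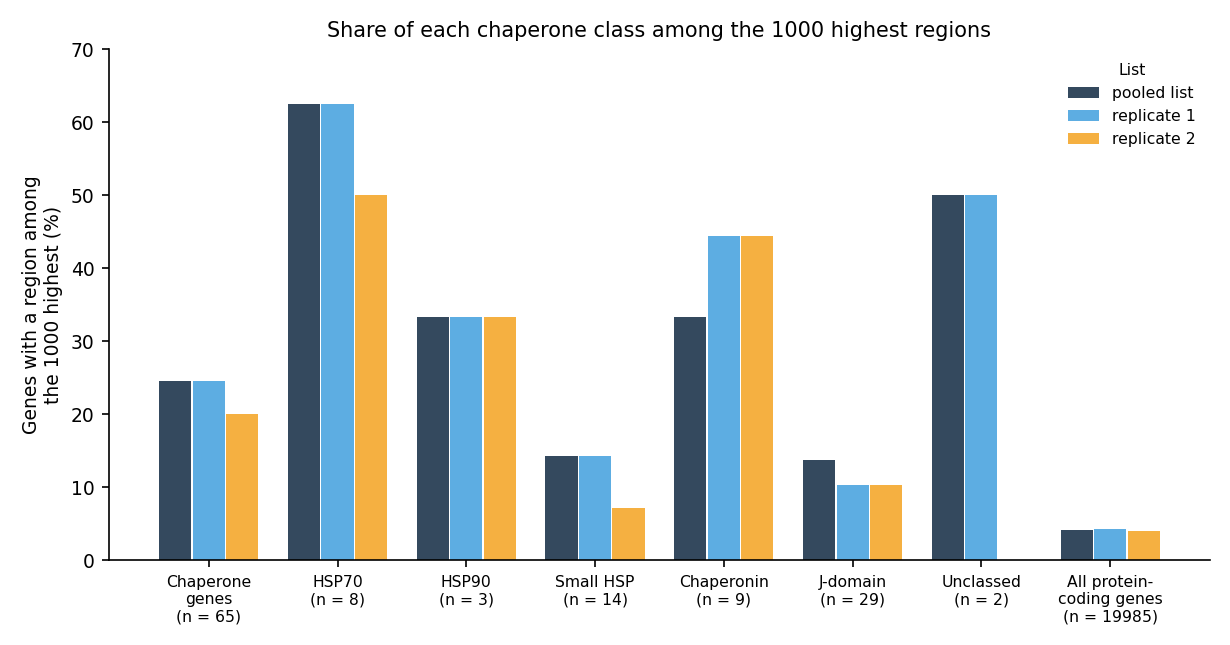
Percentage of the genes of each chaperone class, of all 65 chaperone genes and of all 19985 protein-coding genes that have a region among the 1000 highest (vertical axis), in the pooled list and in each replicate (bar colours). The HSP70 bars stand for 5, 5 and 4 of 8 genes, against about 4% for all protein-coding genes, and the unclassed pair has no bar in replicate 2.

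Counted by gene, the per-replicate shares in the bar plot by class kept HSP70 highest among the named classes. F44E5.4 and F44E5.5 count as 2 HSP70 genes but share 1 region in each list. In replicate 2 the shares were 50% for HSP70 and 44.4% for chaperonins, and in both replicates at once 37.5 and 33.3%. Both of these leads rest on counting the shared region for each gene of the pair. In replicate 1, 5 HSP70, 1 HSP90, 4 chaperonin, 3 J-domain and 2 small heat shock protein genes were among the 1000 highest. In replicate 2 the counts were 4 HSP70, 1 HSP90, 4 chaperonin, 3 J-domain and 1 small heat shock protein gene. In both replicates at once they were 3, 1, 3, 2 and 1 in the same order of classes. The shares of all protein-coding genes were 4.26% in replicate 1, 4.01% in replicate 2 and 1.09% in both at once.

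The HSP70 class held the most genes near the top. hsp-1 encodes the constitutive cytosolic HSP70. Its region at chrIV:17278402-17278731 had signal 70.04 and rank 67 in the pooled list, with its summit 392 bp before the gene start and no other protein-coding start within 1 kb. The overlapping region had signal 43.2 and rank 61 in replicate 1, and signal 25.9 and rank 140 in replicate 2. Both replicates thus placed hsp-1 among their 140 highest regions.

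F44E5.4 and F44E5.5 are a divergent pair of heat-inducible HSP70 genes whose starts face each other across a short intergenic stretch. They shared 1 region, chrII:11759300-11759629, with signal 59.6 and rank 89 in the pooled list. Its summit lay 154 bp before the start of F44E5.4 and 197 bp before that of F44E5.5, so the region cannot be given to either gene alone. It had signal 29.2 and rank 191 in replicate 1, and signal 33.1 and rank 52 in replicate 2. The genes themselves are near-identical copies, with 90.2% of the 36-base words of F44E5.4 and 89.2% of those of F44E5.5 (gene and 1 kb around its start) occurring more than once in the genome. In the region itself the share was 17.3%.

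hsp-110, the gene of the exchange factor HSP110, had its best region at chrIII:8447006-8447335, with signal 48.7 and rank 162. This is just below the lowest signal of a thresholded peak, 48.9. The overlapping regions had signal 28.3 and rank 214 in replicate 1, and signal 17.3 and rank 1160 in replicate 2. The summit lay 262 bp before hsp-110 and 182 bp from the start of rpn-3, a proteasome subunit gene, so the nearer start is not that of the chaperone.

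The HSP70 genes of the organelles did not share the high ranks in both replicates. hsp-3, which encodes a BiP of the endoplasmic reticulum, had signal 36.4 and rank 524 in the pooled list at chrX:6092011-6092340, 52 bp before its start. Its region had signal 31.0 and rank 153 in replicate 1 but signal 10.1 and rank 11045 in replicate 2, a gap of 72.2-fold in rank that was the largest among the 40 chaperone genes with a region in both replicates. hsp-4, the other BiP gene and a target of the unfolded protein response, had rank 3638 in the pooled list, no region in replicate 1 and rank 433 in replicate 2.

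hsp-6, the mitochondrial HSP70 gene, had no region in the pooled list or in replicate 2 and rank 15016 in replicate 1. hsp-70, a heat-inducible cytosolic gene, likewise had a region in replicate 1 only, at rank 3447. Inducible HSP70 genes were thus found both at a thresholded peak and without any pooled region.

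The HSP90 class had 1 gene near the top. hsp-90, the single cytosolic HSP90 gene, held the highest region of all 65 genes, at chrV:14685633-14685962, with signal 83.4 and rank 41 in the pooled list. The overlapping region had signal 47.5 in replicate 1 and 36.7 in replicate 2, and it had rank 45 in both. The summit lay 880 bp inside the annotated gene, in an intron, and 313 bp from the start of C47E8.4, annotated as a FAM50 homolog.

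The organelle HSP90 genes ranked lower. enpl-1, which encodes the HSP90 of the endoplasmic reticulum, had rank 2411 in the pooled list, 13773 in replicate 1 and, at another position, 1834 in replicate 2. hsp-75, the other gene of the class, had a region in replicate 2 only, at rank 6819. sti-1 encodes a cochaperone that bridges HSP70 and HSP90, and its region at chrV:773257-773586 had signal 57.9 and rank 94 in the pooled list, 96 bp before its start. The replicates disagreed on it: signal was 39.8 at rank 72 in replicate 1 and 15.1 at rank 2292 in replicate 2.

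Among the chaperonins, hsp-60 encodes the mitochondrial ring and the cct genes encode subunits of the cytosolic ring. hsp-60 had signal 57.5 and rank 96 in the pooled list at chrIII:1618976-1619305, with signal 29.4 and rank 188 in replicate 1, and signal 27.0 and rank 115 in replicate 2. The summit lay 601 bp before hsp-60 and 212 bp before Y22D7AL.10, which is annotated as the mitochondrial 10 kDa heat shock protein, the lid of that ring. The region therefore lies between the divergent starts of the 2 mitochondrial chaperonin genes, and both replicates held it.

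cct-1 and cct-8 followed closely. cct-1 had signal 54.6 and rank 116 in the pooled list at chrII:8185022-8185351, with signal 25.3 and rank 377 in replicate 1, and signal 30.9 and rank 67 in replicate 2. cct-8 had signal 53.8 and rank 120 in the pooled list at chrIV:1094203-1094532, with signal 26.4 and rank 307 in replicate 1, and signal 23.9 and rank 200 in replicate 2. Both regions also lay near another gene: the cct-1 summit was 256 bp from cct-1 and 164 bp from mig-5, a Dishevelled gene of Wnt signalling, and the cct-8 summit was 448 bp from cct-8 and 173 bp from Y55F3AR.2, annotated as a thioredoxin domain protein.

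The other cct genes did not reach the 1000 highest of the pooled list. cct-5 came next, with signal 29.6 and rank 1568 at a summit in an intron 2502 bp into the gene, rank 604 in replicate 1 and, at another position in the gene, rank 4793 in replicate 2. cct-3 had rank 3235, cct-6 rank 3502, cct-7 rank 11995 and cct-2 rank 15176, and cct-4 had a region in replicate 1 only, at rank 7426. The 8 cct genes encode different subunits of the same ring, and they ranged from rank 116 to no pooled region. cct-6 was among the 1000 highest in replicate 2, at rank 911, but not in replicate 1, where it had rank 3458.

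The J-domain genes formed the largest class and were spread over most of the list. dnj-9 was the only one at a thresholded peak, with signal 61.6 and rank 85 in the pooled list at chrII:4851660-4851989, 231 bp before its start and with no other protein-coding start within 1 kb. The overlapping region had signal 32.3 and rank 130 in replicate 1, and signal 24.2 and rank 185 in replicate 2. The other J-domain genes with a pooled region ran from rank 169 to rank 26831.

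Of those, 3 lay among the 1000 highest. dnj-29 had signal 47.7 and rank 169 in the pooled list, rank 132 in replicate 1 and rank 2805 in replicate 2, with its summit 237 bp before its own start and 291 bp from that of ndua-2. dnj-19 had signal 43.5 and rank 239 in the pooled list, rank 1625 in replicate 1 and rank 874 in replicate 2. Its summit lay 340 bp before its start but only 56 bp from the start of nhr-47, a nuclear hormone receptor gene. dnj-13, of the family that works with cytosolic HSP70, had signal 38.8 and rank 386 in the pooled list, in an intron of dhgd-1 225 bp before its own start. The region overlapping it had rank 332 in replicate 2 but rank 10250 in replicate 1, where another region of the gene had rank 698. Only dnj-9 and dnj-13 were among the 1000 highest of both replicates, and dnj-13 was so at different positions.

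A further 20 J-domain genes had a pooled region below rank 1000, led by dnj-25 at rank 1807, whose 7 regions were the most for any chaperone gene. No pooled region was found for the remaining 5, dnj-2, dnj-8, dnj-10, dnj-18 and dnj-27, each of which had a region in 1 replicate only. dnj-5 and dnj-12 illustrate how far the replicates could part. dnj-5 had rank 1403 in replicate 1, upstream of its start, and rank 28141 in replicate 2 at another position, inside the gene. dnj-12 had rank 22998 in replicate 1 and 1215 in replicate 2.

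The small heat shock protein genes had the lowest share with a region of the 5 named classes in each list, at 5 of 14 in the pooled list, 5 in replicate 1 and 10 in replicate 2. These are 35.7, 35.7 and 71.4%, against 56.3, 59.9 and 60.2% of all protein-coding genes, so the share was below that of all genes in the pooled list and replicate 1 and above it in replicate 2. sip-1, a small heat shock protein of oocytes and embryos, had signal 36.4 and rank 522 in the pooled list, rank 554 in replicate 1 and rank 6195 in replicate 2. Its summit was 237 bp before sip-1 and 20 bp from the start of sly-1, a gene of vesicle traffic. hsp-12.3 had signal 33.9 and rank 753 in the pooled list, rank 658 in replicate 1 and rank 128 in replicate 2. That summit lay 908 bp from the hsp-12.3 start, past the end of the gene and within 200 bp of the small nuclear RNA gene F38E11.11, and 27.9% of the 36-base words of the region were repeated in the genome.

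None of the 6 heat-inducible hsp-16 genes had a region in the pooled list. hsp-16.2 and hsp-16.41, a divergent pair, had no region in the pooled list or in replicate 1 and shared a region at rank 17323 in replicate 2. The 4 hsp-16.1 and hsp-16.48 models had no region in any of the 3 lists, and they are the 4 chaperone genes counted above as without any region. These copies hold much repeated sequence: 92.8 and 92.3% of the 36-base words of the 2 hsp-16.1 models and 80.5 and 78.8% of those of the 2 hsp-16.48 models occur more than once in the genome. The part of repeated sequence in their lack of regions was not tested. For hsp-16.2 and hsp-16.41 the share was 1.05% each, and with words of 25 bases it was 7.45 and 8.25%, against a median of 1.32% over all genes. The small heat shock protein genes were also short, with a median of 707.5 bp against 2026 bp for all protein-coding genes, and the part of length was not tested.

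hsf-1, the gene of the heat shock factor itself, had no high region. It had signal 18.6 and rank 11509 in the pooled list, with the summit 8534 bp into the gene. Its best ranks in the replicates came from other positions. They were 11604 in replicate 1, at 154 bp into the gene, and 7239 in replicate 2, at 1581 bp. The regions that overlap the pooled one had ranks 22259 in replicate 1 and 19307 in replicate 2. The medians for all genes with a region were 9710 in the pooled list, 10098.5 in replicate 1 and 10125.5 in replicate 2.

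**Figure D3:**
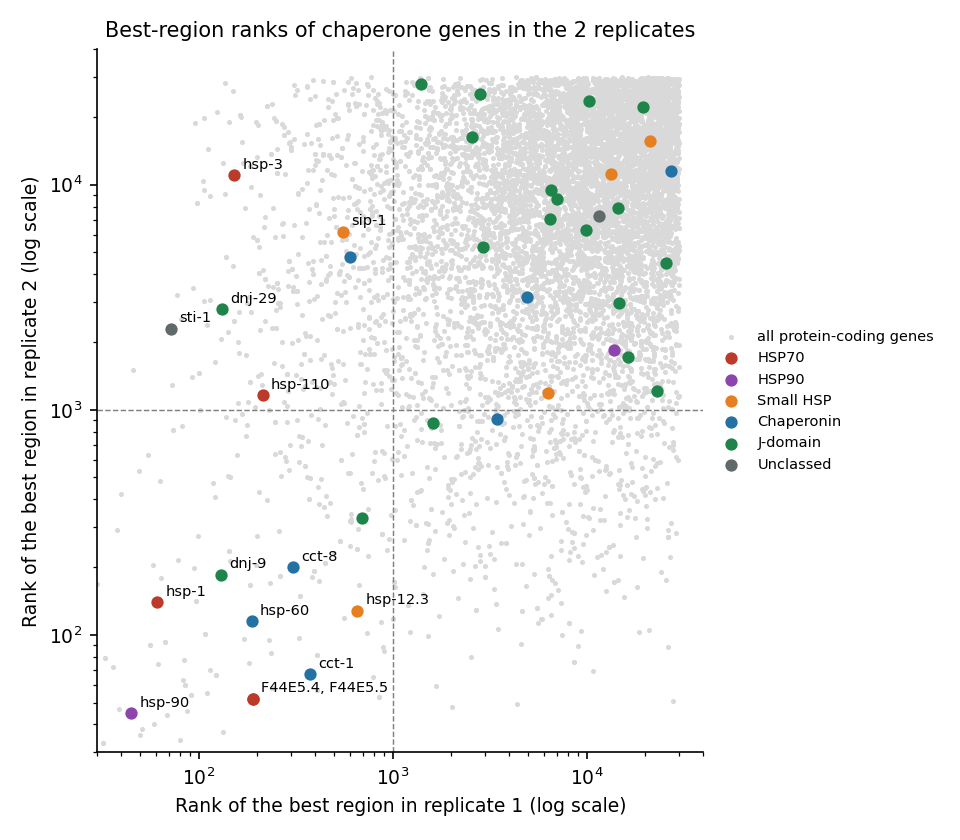
Rank of the best region of each gene in replicate 1 (horizontal) against replicate 2 (vertical), both on log scales, for the 40 chaperone genes with a region in both (coloured by class) and all protein-coding genes (grey, those past rank 30 in both). Dashed lines mark rank 1000. The chaperone genes at lower left are high in both replicates. hsp-3, sti-1, dnj-29, sip-1, cct-5 and hsp-110 are within rank 1000 in replicate 1 only, and cct-6 and dnj-19 in replicate 2 only.

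The plot of ranks in the 2 replicates separates the chaperone genes that repeat from those that do not. Of the 16 genes among the 1000 highest of the pooled list, all had an overlapping region in both replicates, and for 9 of them that region ranked within 1000 in both. Of the 9 genes at a thresholded peak, 8 met this, and the exception was sti-1. Thresholded peaks were chosen by repeatability between these same replicates, so that count is partly set by the choice. The 9 genes also had the same rank among the thresholded peaks as in the pooled list, so the thresholded list is not a separate ranking of them. After hsp-3, the largest gaps among genes with a region in both replicates belonged to sti-1 at 31.8-fold and dnj-29 at 21.3-fold, each higher in replicate 1. Spearman's rho of the best ranks between the replicates was 0.544 over the 40 chaperone genes with a region in both, beside 0.238 over the 8809 protein-coding genes with one. Genes share regions and a tagged strain, so these coefficients describe the lists and carry no test.

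**Figure D4:**
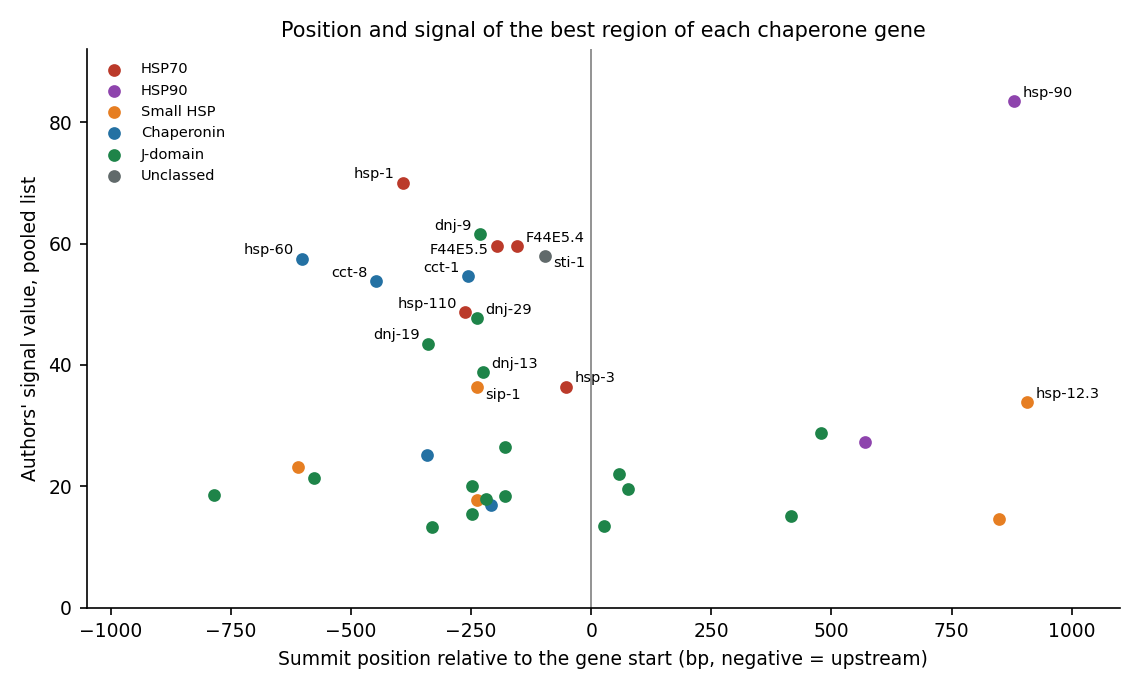
Authors' signal value of the best region in the pooled list (vertical) against the position of its summit relative to the gene start in base pairs (horizontal, negative is upstream), for the 35 chaperone genes whose best summit lies within 1 kb of the start, coloured by class. All labelled regions except those of hsp-90 and hsp-12.3 lie upstream, between 601 and 52 bp before the start.

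Position relative to the gene start was a shared feature of the high regions. As the plot of signal against distance shows, 14 of the 16 chaperone genes among the 1000 highest had the summit upstream within 1 kb, or 87.5%, against 60.5% of the 840 protein-coding genes there. The median summit position relative to the start was -234 bp for the chaperone genes and -141 bp for all of them. Over all best regions, the medians were -154 bp for the 47 chaperone genes and 268.5 bp, inside the gene, for all protein-coding genes. The best summit of the other 12 chaperone genes with a region lay further inside the gene.

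Assignment to a chaperone gene was often not exclusive. The 16 genes lay on 15 distinct regions, and 12 of them had another protein-coding start within 1 kb of the summit. The chaperone's own start was the nearest for 7 of the 16, or 43.8%, against 56.8% of all genes among the 1000 highest. With each region given only to the gene of the nearest start, 7 chaperone genes, dnj-9, dnj-13, dnj-29, F44E5.4, hsp-1, hsp-3 and sti-1, stayed among the 1000 highest, against 2.43% of all genes. At thresholded peaks 4 stayed, dnj-9, F44E5.4, hsp-1 and sti-1, against 0.43% of all genes. Under that assignment hsp-90 and all 3 chaperonin genes were lost to their neighbours.

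**Figure D5:**
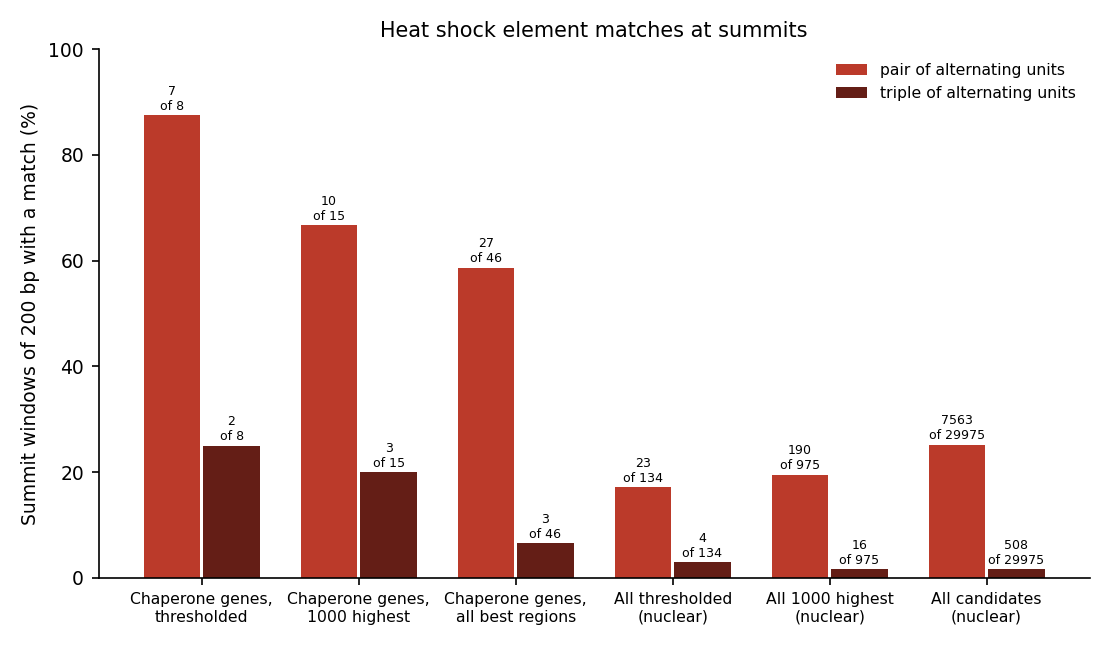
Percentage of 200-bp summit windows (vertical axis) that hold a pair (light bars) or 3 alternating units (dark bars) of the heat shock element, for the distinct best regions of chaperone genes at 3 levels of rank, followed by all nuclear regions at the same levels. Counts stand above the bars. Pairs were found in 7 of 8 thresholded windows of chaperone genes, against 23 of 134 thresholded nuclear windows.

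Heat shock element pairs were frequent in the chaperone windows. A pair was found in 7 of the 8 windows of chaperone genes at thresholded peaks, or 87.5%, against 23 of 134 nuclear thresholded peaks, or 17.2%. Among the 1000 highest the values were 10 of 15, or 66.7%, against 190 of 975, or 19.5%. For all best regions of chaperone genes they were 27 of 46, or 58.7%, against 25.2% of the 29975 nuclear candidate regions, as drawn in the bar plot of element shares. The larger sets contain the chaperone windows, and the base composition differed: the median GC content among the 1000 highest was 43.5% for the chaperone windows and 31.5% for all, while at thresholded peaks it was 41.5% and 41%. The part of base composition in these shares was not tested. The shares also depended on the width of the window. With windows of 100 bp, a pair was found in 3 of 8 chaperone windows at thresholded peaks, or 37.5%, against 8.21% of the 134 nuclear ones. Some of the pairs at thresholded peaks therefore lay outside the central 100 bp.

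Longer elements were rarer and belonged to few loci. A triple is 3 alternating units in a row. It was found in 3 of the 15 chaperone windows among the 1000 highest, those of the F44E5.4 and F44E5.5 pair, hsp-60 and hsp-110, or 20.0%, against 1.64% of the 975 nuclear regions. The printed windows show the difference between neighbours in rank: the F44E5.4 and F44E5.5 window held 5 triples, while those of hsp-90 and hsp-1 held pairs only and that of dnj-9 held neither.

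The elements were also counted in promoters, taken as 250 bases before to 50 bases after each gene start, where the regions play no part. A triple was found in 13 of 65 chaperone promoters, or 20.0%, against 1.97% of the 19973 nuclear protein-coding promoters, and a pair in 47.7% against 32.5%. Of the 13 chaperone genes with a promoter triple, 5 were among the 1000 highest regions: hsp-90, hsp-1, hsp-110, F44E5.4 and F44E5.5. At hsp-90 and hsp-1 the promoter triples lay outside the 200-bp summit window, which held none. The other 8 were not, and they were dnj-12, hsp-70 and the 6 hsp-16 genes. Of these only hsp-16.2 is printed above, and its printed bases show part of the 2 triples counted in its promoter. A promoter triple was therefore present at 31.2% of the 16 chaperone genes with a high region and at 16.3% of the 49 others. These promoters are not all distinct. The windows of divergent pairs such as F44E5.4 and F44E5.5, or hsp-16.2 and hsp-16.41, overlap. The hsp-16.1 and hsp-16.48 models hold much repeated sequence, so the same element can count for several genes. A match of letters is not evidence that a factor binds there, and binding of heat shock factor was not measured.

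A nuclear receptor motif and a GAGA motif were also searched on both strands. AGGTCA was found in 0 of 15 chaperone windows among the 1000 highest, against 3.79% of the nuclear regions there, and in 0 of 8 at thresholded peaks, against 6.72% of the nuclear ones. By the rule that a count of 0 allows up to 3 counts, these zeros allow shares of up to 20.0 and 37.5%. GAGAGA was found in 3 of 8 chaperone windows at thresholded peaks, or 37.5%, against 41.8% of nuclear thresholded peaks, and in 6 of 15 windows among the 1000 highest, or 40.0%, against 23.1%.

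Other genes of protein quality control, from a list of 41 of which 40 were found in the annotation, were set beside the chaperones. A pooled region was found for 35 of them, or 87.5%, against 56.3% of all genes, and 7 were among the 1000 highest, or 17.5%, against 4.20% of all genes. Y22D7AL.10, at rank 96, shares the hsp-60 region described above and was the only one at a thresholded peak, against 0.665% of all genes, or among the 1000 highest of both replicates, against 1.09%. pdi-6, a protein disulfide isomerase gene of the endoplasmic reticulum, had rank 226, and crt-1, the calreticulin gene, had rank 232. pfd-1 and pfd-3, subunits of prefoldin, which hands proteins to the cct ring, had ranks 301 and 474. unc-23, a BAG-domain cochaperone gene, had rank 554, and pph-5, a phosphatase gene that acts with HSP90, had rank 972. The median best rank of the 35 genes was 4612, beside 4155 for the chaperone genes.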

How the data were processed

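Per the labels, ChIP-seq was done on 2 biological replicates of 1 group of L1 larvae. The authors deposited narrowPeak lists whose signal value, set relative to a control alignment per the deposited file listing, was used as given. The aligner, the peak caller and their versions are not named in the sources used here, nor is depth. Reads that map to several places would be placed or dropped by steps that are not stated, which bears on repeated genes.

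The ce11 lists were used, and the ce10 lists were not used here. Regions were ranked by signal within each list, with ties given the lowest rank. Genes and starts came from Ensembl release 115, and sequences came from the RefSeq genome of WBcel235. A region belonged to each gene that held its summit or whose start lay within 1 kb. Named genes were every gene at a thresholded peak or ranked within 1500 in the pooled list, the best of each class, hsf-1, hsp-90, hsp-16.2, F44E5.4 and F44E5.5, the 3 with the largest replicate gap, those with no region, and the listed quality control genes within rank 1000. Others were named after their values were seen. The genes, lists and classes were chosen with earlier results of these data known, so counts and shares are given beside those of all genes, with no test. Intervals are exact Clopper-Pearson intervals at 95% and cover counting error only. Assignment of regions to genes was tested on simulated data, and motif counting was not. Alternatives were each replicate alone, windows of 500 bp and 2 kb, other numbers of top regions, nearest-start assignment, nuclear ranking, other motif windows and other word lengths. Leaving out genes with over 10% repeated words was added after seeing the data. Python 3.11.15, numpy 2.4.6, pandas 2.3.3, scipy 1.17.1 and matplotlib 3.10.9 were used.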

Additional observations from a re-analysis of the deposited data

How the results depend on the processing

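Giving each region only to the nearest protein-coding start moved most counts. Chaperone genes with a pooled candidate region then numbered 31 of 65 instead of 47, against 41.4% of all genes. Those among the 1000 highest numbered 7 instead of 16 (all genes 2.43%), those at thresholded peaks 4 instead of 9 (0.43%) and those among the 1000 highest of both replicates 3 instead of 10 (0.53%). By class, 3 HSP70 genes and 0 HSP90, 0 small heat shock protein and 0 chaperonin genes then stayed among the 1000 highest, while the J-domain count was 3. This assignment also leaves out summits with no start within 1 kb, and the cause of each loss was not tested. Among thresholded peaks above the median signal of that list, 2 chaperone genes remained, hsp-90 and hsp-1, against 0.285% of all genes.

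With 1 replicate's list alone, the count of chaperone genes ranged from 49 to 52 for any candidate region, against 59.9 to 60.2% of all genes. For the 1000 highest it ranged from 13 to 16, against 4.01 to 4.26% of all genes. For as many of the highest regions as there were thresholded peaks it ranged from 6 to 7, against 0.635% of all genes. Small heat shock protein genes among the 1000 highest ranged from 1 to 2, the unclassed genes from 0 to 1, and other quality control genes from 4 to 7. The share of all genes beside these counts was again 4.01 to 4.26%. The small heat shock protein count was also 1 with starts within 500 bp (all genes 3.42%) and 0 among the 500 highest (all genes 2.24%). Among the 2000 highest were 11 of 40 other quality control genes, against 7.61% of all genes. The median summit position ranged from -100 to -78 bp with 1 replicate and was -203 bp when gene bodies were left out. The other alternatives kept each count of genes within 1.5 times its value. Without genes of over 10% repeated words, an alternative chosen after seeing the data, 14 chaperone genes were among the 1000 highest, against 3.78% of all genes. Of the 15 chaperone summits among the 1000 highest, 40% held a heat shock element pair in windows of 100 bp, against 9.13% of the 975 nuclear regions, and 66.7% did in windows of 400 bp, against 38.3%. Of the 8 at thresholded peaks, 37.5% held a pair in windows of 100 bp, against 8.21% of the 134 nuclear peaks. In windows of 400 bp 87.5% of them did, against 33.6%. With 2 replicates of unknown depth, low ranks are imprecise. No paired analysis was possible because there is only 1 group.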
